A study of Homo sapiens with 6 samples.

Results

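The 10 genes described here code for receptor tyrosine kinases that are studied in glioblastoma: EGFR, ERBB2, ERBB3, PDGFRA, PDGFRB, MET, FGFR1, AXL, IGF1R and EPHA2. They were taken by gene symbol and not by a rule on measured values, though with earlier results of these data known. All 10 were found among the 59074 genes of the deposited expression table. The table holds RNA sequencing of 3 glioblastoma lines, named LN-229, T98G and U251, each transfected for 72 h with a pool of siRNAs (siPOOL) that has no target (siControl) or with a siPOOL against the long non-coding RNA HOTAIRM1 (siHOTAIRM1). There was 1 library per cell line and siPOOL, 6 in all, from established cell lines grown in culture with no matched normal tissue. The sample titles write the first line as LNT229 and the cell line entry as LN-229, the name used here.

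Receptor tyrosine kinases span the cell membrane, pair up when a ligand binds outside, and phosphorylate tyrosines inside the cell that recruit adaptor proteins. From there the RAS to ERK and the PI3K to AKT pathways carry the signal to growth, survival and movement. EGFR and PDGFRA are among the genes most often amplified in glioblastoma tumours, and MET and AXL are known for roles in invasion and in resistance to treatment.

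The study proposes that HOTAIRM1 possibly regulates TGM2 by taking up the microRNA miR-17-5p. The binding of miR-17-5p to HOTAIRM1 was taken from earlier reports and predicted sites. Its own experiments showed that a miR-17-5p mimic lowered TGM2 RNA and a reporter with the TGM2 site. In tumour data miR-17-5p was inversely correlated with TGM2 but not with HOTAIRM1. A microRNA lowers the RNAs that it pairs with through its seed, bases 2 to 8. The microRNA is shown first because its seed defines which receptor RNAs hold a match; it is printed from RefSeq, with the seed in capitals.
hsa-miR-17-5p: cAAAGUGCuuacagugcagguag
The 3′ untranslated region of the longest coding transcript of each receptor (GENCODE 44 on hg38) was searched on the transcript's strand for GCACTTT, the letters that pair with the seed, and for GCACTTTA, which holds the former and adds an A. A match to the 7 letters was found in 5 of the 10 receptors, EGFR, PDGFRA, PDGFRB, FGFR1 and ERBB3, and none of the 10 held the 8-letter form. Of the 3′ untranslated regions of 19162 coding genes, 22.4% held the 7 letters and 4.7% the 8 letters. The median length of those regions was 1180 bases, and all receptors but ERBB2 and EPHA2 had a longer one. The shares were not matched for length. A match of each of 4 of the receptors is printed with the bases around it, read 5′ to 3′ along the transcript, the match in capitals, so that the letters can be set beside the seed above.
EGFR, chr7:55210181-55210210, plus strand: gcaataacataGCACTTTgttggtttatat
PDGFRA, chr4:54298018-54298047, plus strand: cattaactgttGCACTTTtgaatgtccaaa
PDGFRB, chr5:150115304-150115333, minus strand: gctctctcctcGCACTTTtatccacccagg
ERBB3, chr12:56102233-56102262, plus strand: tagccagctgtGCACTTTcttctctttccc
The searched regions differ in length, from 317 bases in ERBB2 to 7088 bases in IGF1R, and the longest of them, that of IGF1R, held no match. A match is a description of letters and was not tested as a binding site.

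HOTAIRM1 itself was lower in every siHOTAIRM1 library, from 1.99 to 0.952 CPM (read counts scaled to the depth of the library) in LN-229, from 3.49 to 2.15 CPM in T98G and from 1.27 to 0.623 CPM in U251, reductions of 52.2%, 38.5% and 51.1%. The depth recovered from the values was 52.2 to 103.9 M reads per library, at which 3 reads, taken as the smallest detectable level, are 0.0289 to 0.0574 CPM. The libraries differed in make-up: the listed genes took 42.9 to 67.2% of the CPM scale, and RN7SL1, the RNA of the signal recognition particle, was at 60590 CPM in U251 siControl and at 11860 to 27890 CPM in the others. Of the fixed glioma and mesenchymal markers the summed level was 881 to 3079 CPM, while GFAP, the astrocyte filament, was at most 0.317 CPM in LN-229 and T98G and 42.5 and 20.7 CPM in U251, and NES (nestin) was at most 0.956 CPM in T98G. Of 11 markers of other cell types, 8 were under 1 CPM in all 6 libraries, and the list summed to 2.21 to 10.4 CPM.

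ERBB3 and ERBB2 were high in LN-229, PDGFRB in T98G and PDGFRA in U251, whereas MET, AXL and EPHA2 were expressed in all 3 lines and varied least. In limma fits over 14294 genes, with the siControl and the siHOTAIRM1 library of a line as its 2 libraries and the siPOOL as a term, 9 of the 10 receptors differed between T98G and LN-229, beside 54.9% of all genes tested. Between U251 and LN-229 the count was 7 of 10, beside 60.6%, and between U251 and T98G 7 of 10, beside 64.2%. Differences past the threshold and over 1 on the log2 scale were found for 7, 5 and 5 of the 10, beside 21.3%, 24.6% and 27.0% of all genes. The labels do not say whether the 2 libraries of a line came from separate cultures, so these tests measure a spread that may be technical, and in bulk RNA a smaller number of expressing cells and less RNA per cell cannot be told apart.

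**Figure D1:**
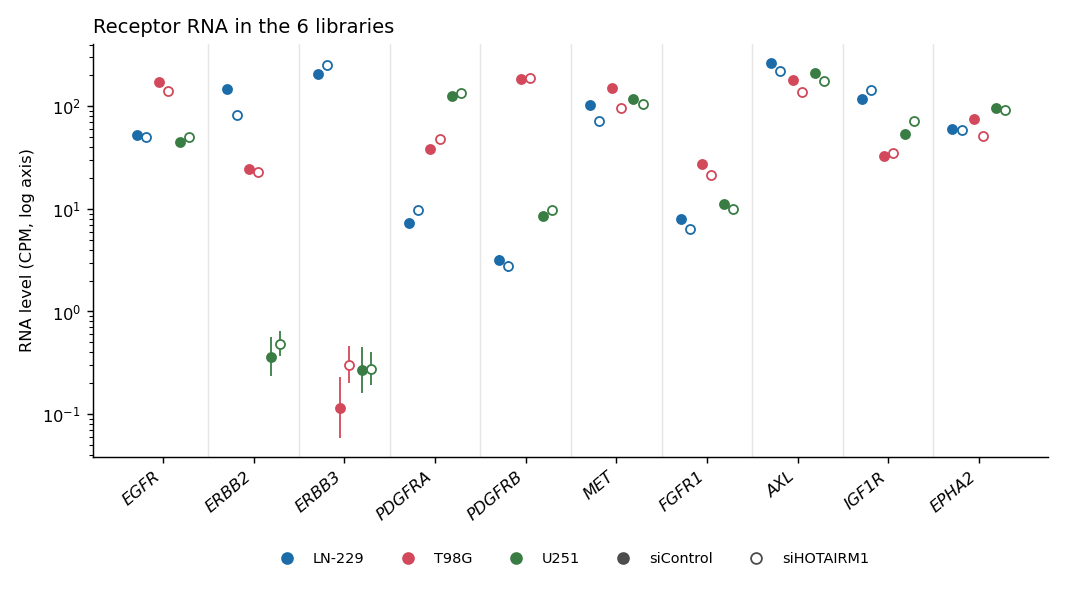
RNA level of each receptor in the 6 libraries, in CPM on a log axis; filled points are siControl, open points siHOTAIRM1, colours are the cell lines, and bars are 95% Wilson intervals that cover counting error only. ERBB3 lies at 207 and 253 CPM in LN-229 and at 0.302 CPM or less in the other lines, and AXL lies between 136 and 262 CPM in all 6 libraries.

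Among the ERBB receptors, EGFR (chr7:55019017-55211628, plus strand), the receptor of EGF and TGF-alpha, was expressed in all 3 lines. It was at 52.6 CPM in LN-229 siControl and 50.3 CPM in LN-229 siHOTAIRM1, at 171 and 139.5 CPM in T98G, and at 44.4 and 50.1 CPM in U251. Both T98G libraries lay above all others, and the LN-229 and U251 libraries lay side by side. By limma, EGFR was higher in T98G than in LN-229 by 1.57 ± 0.18 (log2 difference ± SE, 2 libraries per line, adjusted p = 3.34e-09), and U251 was lower than T98G by -1.69 ± 0.18 (adjusted p = 5.88e-10). LN-229 and U251 did not differ beyond the spread (-0.12 ± 0.18, adjusted p = 0.583).

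ERBB2 (chr17:39687914-39730426, plus strand) has no known ligand and acts as the partner of the other ERBB receptors. Its level was 148 and 83.0 CPM in the LN-229 siControl and siHOTAIRM1 libraries, 24.4 and 22.9 CPM in T98G, and 0.364 and 0.484 CPM in U251. The 3 lines were separate, with the mean of LN-229 272-fold above that of U251, where the values rest on 19 and 49 reads. Each step was past the limma threshold, at -2.18 ± 0.19 for T98G minus LN-229 (adjusted p = 3.81e-12) and -4.11 ± 0.19 for U251 minus T98G (adjusted p = 8.38e-20). The gene overlaps MIEN1 and PGAP3 on the opposite strand, which reached 14.7 and 4.52 CPM. In U251 siControl they were at 4032% and 1242% of the level of ERBB2, the highest shares of the 6 libraries. The kit used does not record the strand, so reads of the overlaps cannot be told apart, which bears most on the low ERBB2 values of U251.

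ERBB3 (chr12:56076799-56103505, plus strand) binds neuregulins and has little kinase activity of its own. It was at 207 and 253 CPM in LN-229, at 0.116 and 0.302 CPM in T98G, and at 0.268 and 0.277 CPM in U251. The values in T98G rest on 8 and 22 reads and those in U251 on 14 and 28 reads, above the 3 reads taken as detectable, and the mean of LN-229 was 844-fold above that of U251. The difference from LN-229 was -7.57 ± 0.18 in T98G and -7.50 ± 0.18 in U251 by limma on log2(CPM + 1), a scale that understates the change of low values (adjusted p = 2.17e-28 and 3.77e-28). The size of such p-values depends on the fit: the highest over the alternative limma fits were 0.000203 and 0.000282. T98G and U251 did not differ beyond the spread (0.08 ± 0.18, adjusted p = 0.718).

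PDGFRA and PDGFRB, the receptors of the platelet-derived growth factors, were led by different lines. PDGFRA (chr4:54229280-54298245, plus strand) was at 7.34 and 9.73 CPM in LN-229, 38.4 and 47.98 CPM in T98G, and 125 and 134 CPM in U251. The 3 pairs of libraries did not overlap, and each step was past the threshold by limma, at 2.21 ± 0.17 for T98G minus LN-229 (adjusted p = 1.58e-13) and 1.57 ± 0.17 for U251 minus T98G (adjusted p = 1.04e-09). PDGFRB (chr5:150113839-150155872, minus strand), known in tumours as a receptor of pericytes and mesenchymal cells, was at 3.19 and 2.75 CPM in LN-229, 185 and 188 CPM in T98G, and 8.50 and 9.68 CPM in U251. T98G stood 20.6-fold above U251 and 62.9-fold above LN-229, and its limma difference from LN-229 was 5.57 ± 0.17 (adjusted p = 6.56e-25). The lower pair was also separate, with U251 above LN-229 by 1.34 ± 0.17 (adjusted p = 3.17e-08).

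IGF1R (chr15:98648539-98964530, plus strand), which carries the survival signal of the insulin-like growth factors, was highest in LN-229. Its values were 117 and 144 CPM there, 32.6 and 35.1 CPM in T98G, and 53.3 and 71.2 CPM in U251. No libraries of different lines overlapped, and the limma differences were -1.91 ± 0.18 for T98G minus LN-229 (adjusted p = 1.83e-11), -1.06 ± 0.18 for U251 minus LN-229 (adjusted p = 4.32e-06) and 0.85 ± 0.18 for U251 minus T98G (adjusted p = 0.000105). FGFR1 (chr8:38400215-38468834, minus strand), a receptor of the fibroblast growth factors, was expressed in all 3 lines. It was at 7.96 and 6.32 CPM in LN-229, 27.1 and 21.3 CPM in T98G, and 11.1 and 9.88 CPM in U251, so that T98G stood apart from both other lines. FGFR1 was higher in T98G than in LN-229 by 1.63 ± 0.17 (adjusted p = 4.73e-10, limma), while the difference of U251 from LN-229, 0.50 ± 0.17 (adjusted p = 0.0128), lost its call without LN-229 siControl, LN-229 siHOTAIRM1 or U251 siHOTAIRM1, with adjusted p up to 0.131. The opposite-strand gene LETM2 overlaps FGFR1 and reached 2.33 CPM, at most 34.6% of the level of FGFR1 in the same library.

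The other 3 receptors, MET, AXL and EPHA2, were the most even, with ratios of the highest to the lowest line mean of 1.40, 1.53 and 1.59. MET (chr7:116672196-116798377, plus strand), the receptor of hepatocyte growth factor, was at 104 and 71.9 CPM in LN-229, 151 and 95.6 CPM in T98G, and 118 and 106 CPM in U251. The T98G pair overlapped with both other lines, and both LN-229 libraries lay below those of U251. The difference of T98G from LN-229, 0.47 ± 0.19 (adjusted p = 0.0360, limma), lost its call in 5 of the 6 fits that left out a library (adjusted p up to 0.272, all but that without U251 siControl), and U251 did not differ beyond the spread from LN-229 (0.37 ± 0.19, adjusted p = 0.0907) or T98G (-0.10 ± 0.19, adjusted p = 0.673).

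AXL (chr19:41219223-41261766, plus strand), which binds GAS6 and is a marker of mesenchymal tumour cells, was at 262 and 222 CPM in LN-229, 179 and 136 CPM in T98G, and 211 and 177 CPM in U251. Both LN-229 libraries were above all others. Its difference between T98G and LN-229 was -0.62 ± 0.20 (adjusted p = 0.00878, limma) and lost its call without LN-229 siControl, LN-229 siHOTAIRM1 or T98G siHOTAIRM1 (adjusted p 0.0521, 0.0931 and 0.0792). U251 minus LN-229 was -0.32 ± 0.20 (adjusted p = 0.169), and passed the threshold when each library was centred on its median (-0.45, adjusted p = 0.0135). U251 minus T98G was 0.30 ± 0.20 (adjusted p = 0.186).

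EPHA2 (chr1:16124337-16156069, minus strand), a receptor of the ephrin-A ligands on neighbouring cells, was at 59.6 and 59.3 CPM in LN-229, 74.4 and 51.8 CPM in T98G, and 97.0 and 91.9 CPM in U251. Both U251 libraries were above the other 4, by 0.66 ± 0.18 from LN-229 (adjusted p = 0.00242) and 0.60 ± 0.18 from T98G (adjusted p = 0.00515, limma). The first call was lost without LN-229 siControl or U251 siHOTAIRM1 (adjusted p 0.102 and 0.0658), and the second without T98G or U251 siHOTAIRM1 (adjusted p 0.147 and 0.10). T98G and LN-229 did not differ beyond the spread (0.06 ± 0.18, adjusted p = 0.797). The median difference of all genes tested was -0.08 for T98G minus LN-229, 0.15 for U251 minus LN-229 and 0.22 for U251 minus T98G. The uncalled differences of EPHA2 for T98G minus LN-229 and of MET for U251 minus T98G were no larger in size than those medians. The called differences of MET, AXL and EPHA2 were larger, and kept their calls with each library centred on its median.

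To compare receptors with each other, CPM was divided by the length of the longest coding transcript in kilobases and set against the sum over 58 receptor tyrosine kinases, the 10 and the other 48. That transcript need not be the one expressed and no other length was tried, so shares and close ranks may depend on this choice. The 10 together made up 67.4 and 63.3% of that sum in the siControl and siHOTAIRM1 libraries of LN-229, 64.3 and 60.4% in T98G, and 45.1 and 47.4% in U251. AXL was the highest of the 10 per kilobase in 5 of the 6 libraries, at 28.9 to 55.6 CPM per kb over all 6, and in T98G siHOTAIRM1 PDGFRB was above it, at 33.0 against 28.9 CPM per kb. EGFR, ERBB2 and ERBB3 together took 28.7 and 27.6% of the receptor RNA in LN-229, 9.77 and 9.38% in T98G, and 1.75 and 2.22% in U251. PDGFRA and PDGFRB took 0.673 and 0.820% in LN-229, 16.9 and 20.1% in T98G, and 8.01 and 9.63% in U251. The receptor with the largest share outside the 10 was FLT1, a receptor of vascular endothelial growth factor, in LN-229 (7.72 and 8.65%), PTK7, a Wnt co-receptor, in T98G (7.21 and 8.26%), and the ephrin receptor EPHA3 in U251 (21.2 and 16.3%). In U251, EPHA3 was higher per kilobase than each of the 10, at 55.6 and 38.3 CPM per kb against 44.8 and 37.4 CPM per kb of AXL.

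**Figure D2:**
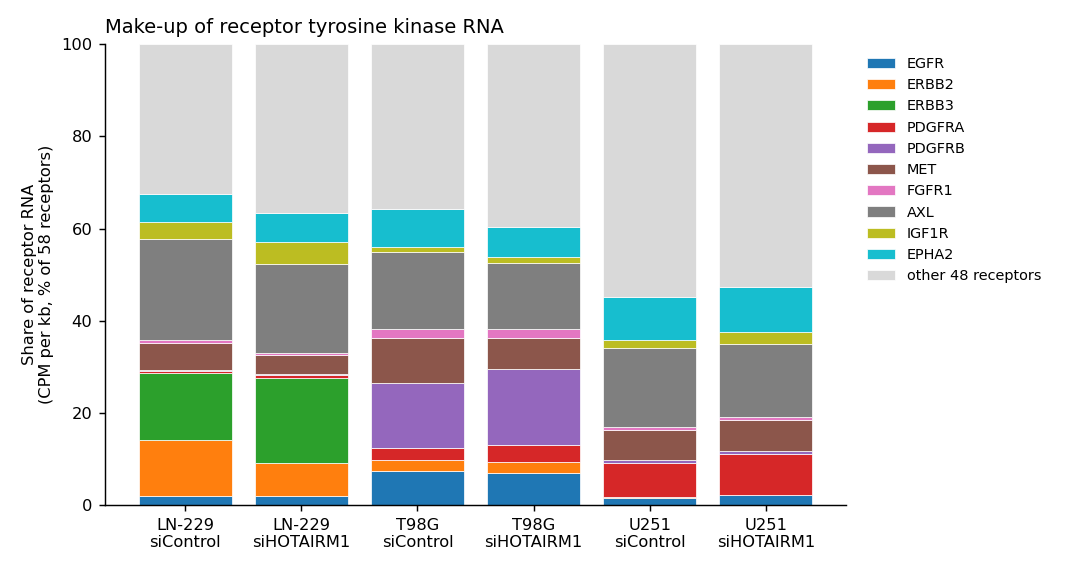
Make-up of receptor tyrosine kinase RNA in each library, as the share in percent of the summed CPM per kb of 58 receptors; coloured segments are the 10 receptors described and grey is the sum of the other 48. The grey share is 32.6 to 39.6% in LN-229 and T98G and 54.9 and 52.6% in U251, and the ERBB2 and ERBB3 segments are 7.07 to 18.4% in LN-229 and at most 2.37% in the other lines.

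The ligands were compared between the lines in the same fits. Of 11 ligands of EGFR and the other ERBB receptors, 6 had the mean of at least 1 CPM needed for the test, and 5 of the 6 differed in each of the 3 comparisons between lines, beside 54.9%, 60.6% and 64.2% of all genes. TGFA, a ligand of EGFR, was at 551 and 488 CPM in LN-229, 0.478 and 0.536 CPM in T98G, and 122 and 170 CPM in U251. TGFA thus stood lowest in the line where EGFR was highest, with a limma difference of T98G from LN-229 of -8.43 ± 0.18 (adjusted p = 6.92e-29). EGF went the other way, highest in T98G at 21.7 and 19.1 CPM. Its level was 9.61 and 10.8 CPM in U251 and 2.39 and 1.91 CPM in LN-229. NRG1, the neuregulin bound by ERBB3, was at 83.2 and 62.9 CPM in T98G, where ERBB3 was at 0.302 CPM or less, and at 8.37 and 8.12 CPM in LN-229, where ERBB3 was highest. Its difference of T98G from LN-229 was 2.99 ± 0.18 (adjusted p = 1.55e-16), and EREG, another ligand of EGFR, was lower in U251 than in LN-229 by -3.22 ± 0.17 (adjusted p = 1.66e-18).

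Of 21 ligands of the other receptors, 14 were tested, and 11, 12 and 11 of them differed for T98G minus LN-229, U251 minus LN-229 and U251 minus T98G, beside the same shares of all genes. PDGFD, a ligand of PDGFRB, was at 74.7 and 81.7 CPM in T98G, the line with the most PDGFRB, 28.9 and 15.2 CPM in U251, and 2.24 and 1.44 CPM in LN-229. PDGFA, a ligand of PDGFRA, was lowest in U251, the line with the most PDGFRA, at 3.06 and 1.81 CPM, against 13.8 and 13.6 CPM in T98G (-2.12 ± 0.18, adjusted p = 2.00e-12, limma). PDGFC, another platelet-derived growth factor, was highest in U251, at 33.4 and 40.4 CPM. Its level was 26.6 and 27.3 CPM in T98G and 15.8 and 13.1 CPM in LN-229. HGF, the ligand of MET, was at 7.13 and 5.76 CPM in LN-229 and at or under 3 reads in the T98G and U251 libraries, although MET was at 95.6 CPM or more in both lines. GAS6, the ligand of AXL, was at 18.0 and 13.7 CPM in U251 and 0.249 and 0.241 CPM in LN-229, a difference of 3.75 ± 0.17 (adjusted p = 4.22e-20), while AXL was higher in LN-229. IGF2, a ligand of IGF1R, was at 4.55 and 5.67 CPM in T98G, the line with the least IGF1R, and at or under 3 reads in the other lines. These are levels in 3 lines, too few for a correlation.

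**Figure D3:**
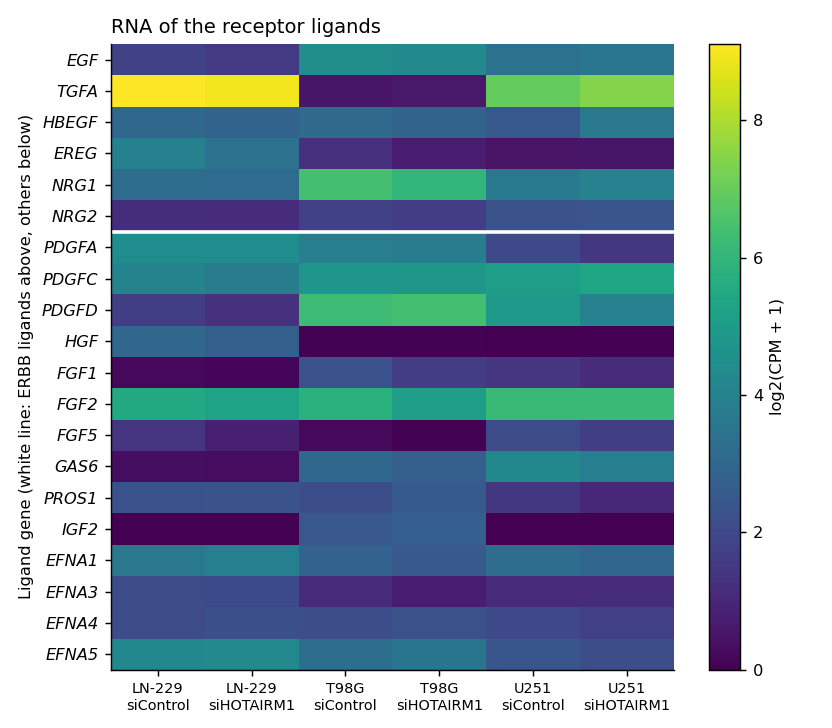
RNA level of the 20 ligand genes that averaged 1 CPM or more, as log2(CPM + 1) in each of the 6 libraries; rows above the white line are ligands of EGFR and the ERBB receptors, rows below it ligands of the other receptors. TGFA is bright in LN-229 and U251 and dark in T98G, and PDGFD and NRG1 are brightest in T98G.

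The knock-down comparison asks which RNAs HOTAIRM1 alters. It paired the siHOTAIRM1 and siControl libraries of each line, with the cell line as block and the 3 lines as replicates. None of the 10 receptors passed the threshold, beside 2.0% of the 14294 genes tested (286 genes). In the limma fit 1 of the 10, MET, had an unadjusted p under the threshold of 0.05, beside 2622 of the 14294 genes. Of the 8 alternative fits, 4 called no gene at all, so they say nothing on the receptors, and the other 4, which called 41 to 683 genes, called 0 of the 10 receptors. At an unadjusted p under 0.05 there were 0 to 3 receptors. The paired statistic of each gene alone gave 2, AXL and FGFR1 but not MET, beside 896 of the 14294 genes. Over all genes tested, the median difference within a line was 0.01 (LN-229), -0.19 (T98G) and -0.03 (U251), so changes within a line are also given relative to it.

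MET had the largest mean change over the 3 lines, -0.44 ± 0.15 (log2 change ± SE, adjusted p = 0.116 by limma). The adjusted p in the alternatives ran from 0.0742 to 1. Here the SE comes from a variance drawn toward that of all genes, so it does not show how evenly 1 receptor changed over the lines. The level of MET was 30.8% lower with siHOTAIRM1 in LN-229, 36.5% lower in T98G and 10.2% lower in U251, and relative to the line medians the changes were -0.54, -0.46 and -0.13. The siHOTAIRM1 library was the lower of the pair in all 3 lines. AXL changed by -0.30 ± 0.16 (adjusted p = 0.333), with -0.25, -0.20 and -0.23 in LN-229, T98G and U251 relative to the medians, the most even of the lower receptors. FGFR1 changed by -0.26 ± 0.14 (adjusted p = 0.331) and was 20.6%, 21.3% and 11.1% lower in the 3 lines. EPHA2 changed by -0.20 ± 0.15 (adjusted p = 0.489), and its change lay in T98G, at -0.32 relative to the median there against -0.02 in LN-229 and -0.05 in U251.

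IGF1R, PDGFRA and ERBB3 were higher with siHOTAIRM1 in all 3 lines, without passing the test. IGF1R changed by 0.27 ± 0.15 (adjusted p = 0.317, limma) and was 23.5%, 7.8% and 33.5% higher in LN-229, T98G and U251. PDGFRA changed by 0.26 ± 0.14 (adjusted p = 0.329) and was 32.6%, 25.1% and 7.1% higher in the same order. ERBB3 changed by 0.18 ± 0.14 (adjusted p = 0.530), with 22.7% more in LN-229, where it is abundant, and with 22 against 8 reads in T98G. In all, 7 of the 10 receptors moved in 1 direction in all 3 lines, beside 39.5% of all genes, 4 of them lower (28.1% of all genes) and 3 higher (11.4% of all genes). Relative to the line medians the same 4 and 3 remained, beside 22.5% of all genes lower and 23.0% higher in all 3 lines.

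The other 3 receptors moved in different directions by line. ERBB2 was 43.9% lower with siHOTAIRM1 in LN-229, from 148 to 83.0 CPM, a log2 ratio of -0.84 whose 95% counting interval ran from -0.87 to -0.80. In T98G the ERBB2 log2 ratio was -0.09 with an interval from -0.19 to 0.01, and in U251 0.41 with an interval from -0.35 to 1.18. Its mean change was -0.26 ± 0.16 (adjusted p = 0.375, limma), and without LN-229 it was 0.02. EGFR was lower by 4.2% in LN-229 and by 18.3% in T98G and higher by 12.9% in U251, with a mean of -0.06 ± 0.15 (adjusted p = 0.871). PDGFRB changed by 0.01 ± 0.14 (adjusted p = 0.980), from -0.16 in LN-229 to 0.17 in U251. Counting intervals cover counting error only, not the spread between cultures, and no test was possible within a line.

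**Figure D4:**
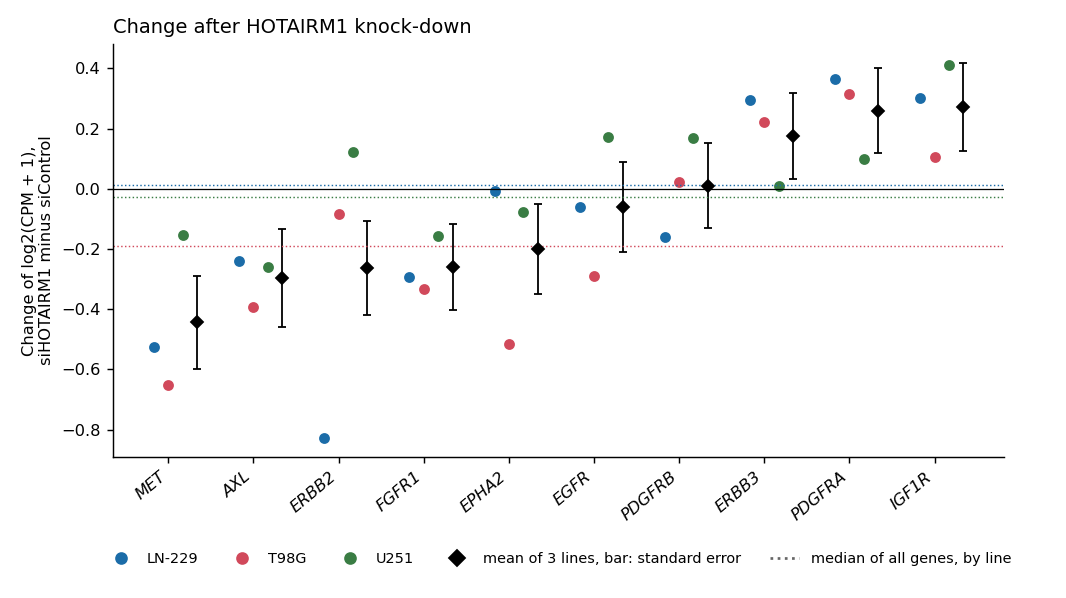
Change of log2(CPM + 1), siHOTAIRM1 minus siControl, of each receptor; coloured points are the 3 cell lines, black diamonds the mean of the 3 with its standard error from limma, and dotted lines the median change of all genes tested in each line. MET lies below 0 in all 3 lines with a mean of -0.44, and ERBB2 spans from -0.83 in LN-229 to 0.12 in U251.

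Set beside the seed matches, the 5 receptors whose 3′ untranslated region holds GCACTTT had mean changes from -0.26 (FGFR1) to 0.26 (PDGFRA), with a median of 0.01 and 2 of 5 below 0. The 5 without a match, ERBB2, MET, AXL, IGF1R and EPHA2, had changes from -0.44 to 0.27, with a median of -0.26 and 4 of 5 below 0. The search was chosen with the changes known, none of the changes passed the test, and the difference between the groups was not tested.

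Downstream, 1 of 34 adaptors and kinases and 3 of 34 genes that restrain signalling passed the knock-down threshold, beside 2.0% of all genes. Their counts at an unadjusted p under 0.05 were 7 and 9 by limma, beside 2622 of all 14294 genes tested. By the paired statistic of each gene alone they were 4 and 3, beside 896. Of 36 adaptors and kinases of the first signalling steps, 34 were tested and 1 rose, PIK3R2, a regulatory subunit of PI3K, by 0.56 ± 0.14 (adjusted p = 0.0333, limma), with a list median of -0.03 beside -0.07 over all genes tested. PIK3R2 went from 8.29 to 12.1 CPM in LN-229, 8.25 to 11.6 CPM in T98G and 18.3 to 30.9 CPM in U251, higher in every pair. Of 38 genes that restrain receptor signalling, including phosphatases, Sprouty and IGF-binding proteins, 34 were tested, 1 rose and 2 fell, with a list median of 0.02. SPRY1, an inhibitor of RAS to ERK signalling, rose by 0.64 ± 0.14 (adjusted p = 0.00756), from 0.838 to 1.45 CPM in LN-229, 2.88 to 5.55 CPM in T98G and 3.77 to 7.06 CPM in U251.

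IGFBP6 and IGFBP3, secreted proteins that bind insulin-like growth factors and keep them from IGF1R, fell. The IGF-binding proteins did not all move this way. IGFBP5, which was not called, was higher with siHOTAIRM1 in all 3 lines. It went from 91.4 to 142 CPM in LN-229, 4212 to 4931 CPM in T98G and 278 to 554 CPM in U251. IGFBP4 and IGFBP7, also not called, were lower in all 3 lines, and IGFBP2 was mixed. IGFBP6 fell by 0.69 ± 0.16 (adjusted p = 0.0132, limma), from 5.08 to 4.43 CPM in LN-229, 29.3 to 15.7 CPM in T98G and 3.39 to 1.12 CPM in U251. IGFBP3 fell by 0.86 ± 0.20 (adjusted p = 0.0169), from 18.9 to 4.598 CPM in LN-229 and 82.9 to 42.5 CPM in T98G, and was at 3.14 and 3.75 CPM in U251, where it was not lower. Without LN-229 the change of IGFBP3 was -0.37 (adjusted p = 0.365) and that of PIK3R2 0.58 (adjusted p = 0.0927), and without U251 that of PIK3R2 was 0.47 (adjusted p = 0.351) and that of IGFBP6 -0.51 (adjusted p = 0.248). The calls of PIK3R2, SPRY1, IGFBP6 and IGFBP3 were all lost without T98G, with adjusted p of 0.581, 0.581, 0.581 and 0.590, and without the block, with centred libraries, with a paired test statistic of each gene alone and without the filter on low values.

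No other receptor or ligand passed the knock-down threshold by limma over the 3 lines. Among 48 other receptor tyrosine kinases, 23 were tested with a median of 0.07, and the largest change was that of EPHB3 (0.36, adjusted p = 0.146). At an unadjusted p under 0.05 there were 4 of the 23, 1 of 6 ERBB ligands and 4 of 14 other ligands. By the paired statistic of each gene alone, which called no gene of all those tested, there were 3, 0 and 0. Over all 14294 genes tested there were 2622 by limma and 896 by the paired statistic. Of the 6 ERBB ligands tested the largest was EREG (-0.38, adjusted p = 0.126, but -0.58 and 0.0476 without U251), with a median of -0.04, and of the 14 other ligands PDGFD (-0.39, adjusted p = 0.179), with a median of -0.12. Of 7 tested glioma and mesenchymal markers none passed (2 at an unadjusted p under 0.05, 0 by the paired statistic), and CHI3L1, a mesenchymal marker, changed by -0.47 (adjusted p = 0.104), a value that rests on T98G, since it was -0.01 without T98G and -0.68 without U251 (adjusted p = 0.969 and 0.000115). Of the markers of other cell types 2 of 11 were tested, MBP and CD68, a lysosomal protein of macrophages, which fell by 0.62 (adjusted p = 0.0223), from 7.80 to 2.72 CPM in T98G, with 0.785 and 0.801 CPM in LN-229 and 1.06 and 0.324 CPM in U251. Without T98G the change of CD68 was -0.31 (adjusted p = 0.590), and its call was also lost without the block, with the paired statistic, with centred libraries and with no filter. PTPRC, the marker of all blood cells, had means of 0.0641 CPM or less in the 3 lines, and the part of CD68-expressing cells in the receptor values was not tested.

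**Figure D5:**
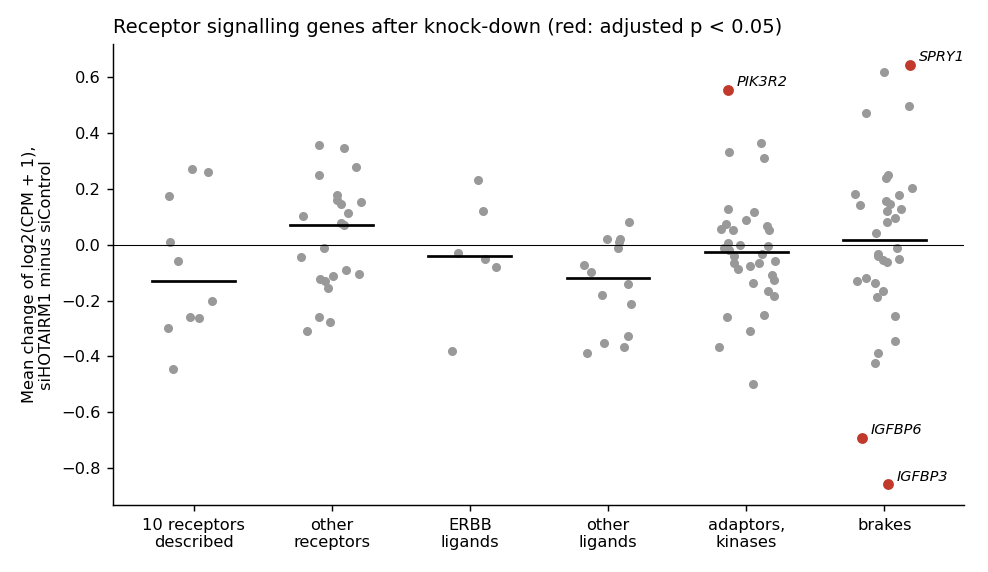
Mean change of log2(CPM + 1) over the 3 cell lines, siHOTAIRM1 minus siControl, of every tested gene of 6 lists; each point is a gene, red points passed an adjusted p of 0.05 (limma), and black bars are list medians. PIK3R2 and SPRY1 lie at 0.56 and 0.64 and IGFBP6 and IGFBP3 at -0.69 and -0.86, and no point of the 10 receptors is red.

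Between the lines, 14, 19 and 23 of the 34 tested adaptors and kinases differed for T98G minus LN-229, U251 minus LN-229 and U251 minus T98G, beside 54.9%, 60.6% and 64.2% of all genes. GAB2, a docking protein, was at 21.7 and 22.9 CPM in LN-229 and at 3.97 CPM or less in the other lines. SRC, a kinase that works with many receptors, was lower in U251 than in T98G by -2.18 ± 0.18 (adjusted p = 3.70e-13, limma), and NRAS was higher by 1.94 ± 0.19 (adjusted p = 4.48e-11). Of the 34 tested restraining genes, 28, 25 and 26 differed, beside the same shares. DUSP6, an ERK phosphatase that ERK signalling itself induces, was at 54.0 and 50.1 CPM in LN-229 and at 5.90 CPM or less in T98G and U251, and PTPRF, a receptor phosphatase, was lower in U251 than in LN-229 by -3.22 ± 0.19 (adjusted p = 5.24e-17). IGFBP4 was at 131 and 128 CPM in T98G, the line with the least IGF1R, and at 0.193 and 0.0577 CPM in LN-229, the line with the most.

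Genes next to the receptors were compared because neighbours are amplified along with a receptor gene. Of 11 tested neighbours of EGFR, PDGFRA, MET and ERBB2, 4 differed between T98G and LN-229, 9 between U251 and LN-229 and 6 between U251 and T98G, beside 54.9%, 60.6% and 64.2% of all genes. Relative to LN-229, 3 were higher and 1 lower in T98G and all 9 were higher in U251, neighbours of each of the 4 receptors among them, and the 6 were higher in U251 than in T98G. Beside PDGFRA on chromosome 4, CHIC2 was at 31.2 and 23.6 CPM in U251, against 3.65 CPM or less in the other lines, and LNX1 was higher in U251 than in T98G by 1.45 ± 0.15 (adjusted p = 3.60e-10, limma), in the line where PDGFRA was highest, while FIP1L1 was at 21.95 to 28.9 CPM in all 6 libraries. Beside EGFR, SEC61G and VOPP1 had means of 25.6 and 80.2 CPM in T98G, the line with the most EGFR, against 17.04 and 53.7 CPM in LN-229 and 31.2 and 82.6 CPM in U251. LANCL2 was lower in T98G than in LN-229 (-0.65 ± 0.18, adjusted p = 0.00221), a call lost without T98G siControl, LN-229 siHOTAIRM1 or T98G siHOTAIRM1 (adjusted p 0.0554, 0.131 and 0.0838). Beside MET, CAV1 was higher than in LN-229 by 1.94 ± 0.19 in T98G and by 1.72 ± 0.19 in U251. Gene copy number was not measured. After knock-down none of the 11 passed the threshold by limma, and the largest change was that of SEC61G, beside EGFR (-0.41, adjusted p = 0.129). An unadjusted p under 0.05 was found for 3 of the 11 by limma, beside 2622 of all 14294 genes tested. The paired statistic gave 1 of the 11, beside 896 of all genes.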

How the data were processed

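Total RNA (500 ng) of 6 samples was made into libraries with the TruSeq v2 kit, which does not record the strand, and sequenced for 101 cycles. The authors trimmed 13 bases at the 5′ and 1 base at the 3′ end in Partek Flow, aligned to hg38 with STAR 2.4.1d, aligned the remaining reads with Bowtie 2 2.2.5, and quantified Ensembl 84 genes with an Expectation-Maximization algorithm. The deposited values are CPM of 59074 genes with 0.0001 added, which was subtracted for the printed levels. The worth of 1 read in CPM was recovered from the steps between low values. Since 44.5 to 51.2% of values were whole reads within 0.02 read (82.9 to 83.7% of those under 2 CPM), no count test was run. No column or library was left out.

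The 14294 genes that averaged 1 CPM or more were tested with limma 3.58.1 (R 4.3.3) on log2(CPM + 1), with a variance trend, Benjamini-Hochberg adjustment and a threshold of 0.05. Cell line was the block of the knock-down comparison and siPOOL a term of the cell line comparisons. The variance of each gene was drawn toward a trend over all genes (32.5 prior and 2 residual degrees of freedom). The SEs and p-values by limma therefore do not rest on the libraries of 1 gene alone. The libraries of 1 line were paired as the same cell line: their deviations from the siPOOL means correlated at 0.948 to 0.967, and those of different lines at -0.505 to -0.467. Alternatives were no block, a paired statistic of each gene alone, centring on the median, no filter, a pseudocount of 0.1 CPM, cell line alone, and leaving out each line or library. Intervals are 95% Wilson or log ratio intervals of recovered reads.

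The members and lists were chosen with earlier results of these data known. Named besides the 10 receptors were, of each list, up to 4 genes past the knock-down threshold (or the largest change if none passed) and the 2 largest called differences between lines, and the 3 genes most alike in pattern to each of the 3 receptors that varied most. PTK7, VOPP1, FIP1L1, MIEN1, PGAP3, LETM2, PTPRC, EGF, PDGFC and IGFBP2 were added after their values were seen, as were the knock-down values of IGFBP5, IGFBP4 and IGFBP7. Some further matches are not reported here.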

Additional observations from a re-analysis of the deposited data

Results flagged for a closer look

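EGFR moved in opposite directions after knock-down of HOTAIRM1 in U251 and in the other lines, both as measured and against the median change of the line. Relative to the median, its log2(CPM + 1) was 0.20 higher with siHOTAIRM1 in U251, and changed by -0.07 in LN-229 and -0.10 in T98G. The change in U251 thus exceeded that in LN-229 by 0.27 and that in T98G by 0.30 (0.2709 and 0.2979). With 1 library per cell line and siPOOL the differences were not tested. In the same libraries RN7SL1 was at 60590 CPM in U251 siControl and 27890 CPM in U251 siHOTAIRM1, and its part in the change was not tested. No group held 4 or more libraries, so no library was tested as standing apart from its group.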

How the results depend on the processing

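Of 80 alternative values of the receptors' knock-down changes, 75 kept their direction and side of the threshold and 5 turned direction; of 300 of their differences between lines, 273 kept both, 19 lost the call, 1 gained it and 7 turned direction. Besides the losses without 1 library given above, MET T98G minus LN-229 lost its call with no filter (adjusted p 0.121) and with cell line alone (0.172), FGFR1 U251 minus LN-229 with cell line alone (0.0510) and EPHA2 U251 minus T98G with no filter (0.0584), by limma. In fits without 1 library the remaining library of that line is assumed to vary like the others. The calls of EGFR, ERBB2, ERBB3, PDGFRA, PDGFRB and IGF1R between lines held in all. None of the turned values was of a called change: the EGFR knock-down change with centring (0.0188) and, over fits without 1 line, -0.175 to 0.0550; the ERBB2 knock-down change of -0.26 without LN-229 (0.0187; -0.456 to 0.0187 over the lines left out); the PDGFRB knock-down change with a pseudocount of 0.1 (-0.000131) and over the lines left out (-0.0698 to 0.0957); ERBB3 U251 minus T98G with centring (-0.14). Over the 6 fits without 1 library, EGFR U251 minus LN-229 ran from -0.295 to 0.0510, ERBB3 U251 minus T98G from -0.0464 to 0.202, MET U251 minus T98G from -0.32 to 0.12 and EPHA2 T98G minus LN-229 from -0.17 to 0.30. The number of receptors called ran from 7 to 9 for T98G minus LN-229, 5 to 8 for U251 minus LN-229 and 6 to 7 for U251 minus T98G.

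Over all genes, the 286 knock-down calls (59 higher) became 0 with no replicate block (29 at an unadjusted p under 0.05), 0 with the paired statistic (896 unadjusted), 0 with no filter (2477 unadjusted), 41 with centring (15 higher) and 683 with a pseudocount of 0.1; leaving out 1 line gave 0 to 270 (0 without T98G, 149 without U251, 270 without LN-229). The 7851 calls of T98G minus LN-229 ran from 5107 (without T98G siHOTAIRM1) to 8046 over the fits without 1 library. The causes were not tested. Leaving out the replicate block removed all 286 calls, and the receptors had no call to lose. Of the 46 named differences of other genes between lines, 457 of 460 alternative values kept their call; of 10 named knock-down changes of other genes, 49 of 80 did, 29 lost it and 2 gained it. With 1 library per line and siPOOL, depth limits only ERBB2 in U251 and ERBB3 in T98G and U251, at 49 reads or fewer.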

Other observations

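The genes with the pattern most like each of the 3 receptors that varied most between lines are given as a description over the 6 libraries, which share cell line and depth and fall into 3 pairs. ZNF677 (Pearson r 0.9999), GAGE13 (r 0.9999) and CPXM2 (r 0.9998) were most like ERBB3. ZNF677, a zinc finger protein, was at 8.78 and 9.95 CPM in LN-229 and at 0.0494 CPM or less in the other lines, and CPXM2 at 11.2 and 12.8 CPM in LN-229 and 0.0138 CPM or less elsewhere. GAGE13 belongs to a family of near-identical genes, so its reads are uncertain.

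ARL10 (r 0.9990), TGM2 (r 0.9986) and TMEM255A (r 0.9983) were most like ERBB2. TGM2, a transglutaminase, was at 43.6 and 31.3 CPM in LN-229, 8.31 and 9.38 CPM in T98G and 0.0191 and 0 CPM in U251. Like ERBB2, all of these were lower in the siHOTAIRM1 than in the siControl library of LN-229, ARL10 at 12.6 against 17.6 CPM and TMEM255A at 4.25 against 5.54 CPM. The genes were picked for their likeness over the same 6 libraries, so this shared change is part of the choice. ELFN2 (r 0.9997), ATP11A (r 0.9995) and TTC3P1 (r 0.9992) were most like PDGFRB. ATP11A, a phospholipid flippase, was at 32.8 and 32.3 CPM in T98G and at 1.31 CPM or less in LN-229 and U251. The correlation is over log2(CPM + 1), and with 3 lines a pattern of 1 high line is shared by many genes.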
